A study of Arabidopsis thaliana with 12 samples.

Results

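The conserved miRNA genes *MIR160c*, *MIR319a*, *MIR319b*, *MIR166e*, *MIR159b*, and *MIR157d* of *Arabidopsis thaliana* carried few 24-nt reads in WT seedlings and more of them in the *nrpd1* mutant, in which most 24-nt siRNAs are lost. The 6 genes were selected on these measurements. For each, a 100-bp bin with a higher 24-nt level in *nrpd1* than in WT was named. Table rows within 300 bp of it were added. This gave 9 of the 57094 bins in the table, 6 named bins and 3 adjoining ones. All 9 were above 5 RPTM in at least 1 library, as were 56658 bins in all. The named bin of *MIR159b* passed this filter only through 1 *nrpd1* library (5.36 RPTM). Those of *MIR166e* and *MIR157d* passed only through mutant libraries, *nrpd1* among them. At these genes, part of the higher level in *nrpd1* can follow from the filter. The named bins are 6 of the 7 bins at listed conserved miRNA genes that limma called higher in *nrpd1* (adjusted p under 0.01). A higher level alone does not mark them, since the adjoining bin of *MIR319b* also had a higher mean in *nrpd1* (7.76 RPTM against 6.29 in WT). RPTM, the unit of the deposited values, is the number of 24-nt reads per 10000000 mapped reads of all lengths from 18 to 30 nt. Differences from WT are log2 fold changes on log2(RPTM + 1), a scale on which changes of low bins are understated.

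The libraries came from whole 2-week-old seedlings of 4 genotypes, with 3 biological replicates of each: *nrpd1-3*, WT, *pkl-1*, and *nrpe1-11*. *PKL* encodes a CHD3 chromatin remodeler, *NRPD1* the largest subunit of RNA polymerase IV (Pol IV), and *NRPE1* that of RNA polymerase V (Pol V). The study asked whether PKL influences RNA-directed DNA methylation, and small RNAs of the 2 polymerase mutants were sequenced for comparison. Each genotype rests on 1 allele, all plants were untreated, and the labels give a 12 h light and 12 h dark cycle. The paper's methods state a longer daily light period, and this difference was not resolved. Between 5598380 and 12390784 reads were mapped per library, so that 1 read is worth 0.807 to 1.79 RPTM and 3 reads, the most that a count of 0 allows in 1 library, 2.42 to 5.36 RPTM. These limits and all intervals of read ratios cover counting error only. In the named bins, the intervals for *nrpd1* over WT rest on the values by which the bins were chosen. Those intervals do not test a difference. The 24-nt reads in the table's bins made up 6.05 to 6.29% of mapped reads in *nrpd1*, 9.25 to 9.94% in *nrpe1*, 11.1 to 15.5% in *pkl*, and 15.8 to 16.2% in WT.

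Plant miRNAs are cut by DICER-LIKE 1 from the folded hairpins of Pol II transcripts, mostly as 21-nt RNAs that guide AGO1 to complementary mRNAs. The 24-nt siRNAs of RNA-directed DNA methylation have another origin: Pol IV transcripts are made double-stranded and cut by DICER-LIKE 3, and AGO4 guided by these siRNAs acts with Pol V. DICER-LIKE 3 can also cut some miRNA hairpins, from which long miRNAs of 24 nt arise. The families of the 6 genes are shared by flowering plants and are best known as regulators of transcription factors in development, with miR160 directed at auxin response factors, miR166 at HD-ZIP III genes, miR319 at TCP genes, miR159 at MYB genes, and miR157 at SPL genes. Hairpins of the miR319 and miR159 families are long and are cut stepwise from the loop towards the base.

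The annotated mature miRNAs show which part of each hairpin the field's names refer to. They were read from the RefSeq TAIR10.1 genome at the annotated positions and are printed 5′ to 3′ as RNA, with bases 2 to 8, the seed, in capitals.
miR160c-5p: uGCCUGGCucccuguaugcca
miR160c-3p: cGUACAAGgagucaagcauga
miR319a: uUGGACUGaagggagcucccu
miR319b: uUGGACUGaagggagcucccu
miR166e-5p: gGAAUGUUgucuggcacgagg
miR166e-3p: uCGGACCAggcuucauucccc
miR159b-5p: gAGCUCCUugaaguucaaugg
miR159b-3p: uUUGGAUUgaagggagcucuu
miR157d: uGACAGAAgauagagagcac
miR319a and miR319b are the same sequence, which occurs 2 times in the genome, and share the seed UGGACUG. The other 7 mature sequences each have a seed of their own. miR160c-5p occurs 3 times, miR157d 4 times, and miR166e-3p 7 times in the genome, and the remaining 4 occur once.

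The named bins cover different parts of the hairpins. The hairpin sequence inside each named bin, which shows what a 24-nt read there could come from, is given 5′ to 3′ on the transcribed strand as DNA. Capitals mark the bases of annotated mature miRNAs, and a sequence without capitals holds none.
MIR160c: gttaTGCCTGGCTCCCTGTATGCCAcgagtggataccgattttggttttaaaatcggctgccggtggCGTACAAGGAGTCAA
MIR319a: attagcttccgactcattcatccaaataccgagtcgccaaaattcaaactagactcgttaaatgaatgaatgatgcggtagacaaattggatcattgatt
MIR319b: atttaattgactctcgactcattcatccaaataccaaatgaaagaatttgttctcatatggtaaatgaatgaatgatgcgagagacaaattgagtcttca
MIR166e: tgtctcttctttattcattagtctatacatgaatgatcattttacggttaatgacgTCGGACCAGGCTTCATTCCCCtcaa
MIR159b: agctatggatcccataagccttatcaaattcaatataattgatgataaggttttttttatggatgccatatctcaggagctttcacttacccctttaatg
MIR157d: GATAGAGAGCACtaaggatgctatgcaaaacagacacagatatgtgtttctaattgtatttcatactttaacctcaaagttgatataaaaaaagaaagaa
In *MIR319a*, *MIR319b*, and *MIR159b*, the mature 3′ arm lies in the adjoining bin instead, whose part of the hairpin is given in the same way.
MIR319a adjoining bin: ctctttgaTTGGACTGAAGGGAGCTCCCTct
MIR319b adjoining bin: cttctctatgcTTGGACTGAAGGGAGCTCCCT
MIR159b adjoining bin: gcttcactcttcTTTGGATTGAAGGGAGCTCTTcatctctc

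All coordinates are those of TAIR10. The 89-nt hairpin of *MIR160c* (AT5G46845) lies on the minus strand at chr5:19009094-19009182, and its named bin, chr5:19009101-19009200, holds 92.1% of it. The 176-nt hairpin of *MIR319a* (AT4G23713) lies on the plus strand at chr4:12352956-12353131, and positions 46 to 145 are in the named bin, chr4:12353001-12353100. The 172-nt hairpin of *MIR319b* (AT5G41663) lies on the minus strand at chr5:16660469-16660640, and positions 41 to 140 are in the named bin, chr5:16660501-16660600. These pairs of neighbouring bins therefore separate the inner part of the 2 *MIR319* hairpins from their mature miRNA.

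The 143-nt hairpin of *MIR166e* (AT5G41905) lies on the minus strand at chr5:16775520-16775662, and its named bin, chr5:16775501-16775600, holds the whole of miR166e-3p. The 196-nt hairpin of *MIR159b* (AT1G18075) lies on the plus strand at chr1:6220646-6220841, and positions 56 to 155 are in the named bin, chr1:6220701-6220800. The 221-nt hairpin of *MIR157d* (AT1G48742) lies on the minus strand at chr1:18026811-18027031, and its named bin, chr1:18026901-18027000, holds 12 of the 20 bases of miR157d. No other annotated gene overlapped a bin, and the nearest protein-coding gene was 713 to 2063 bp away. In minimum free energy folds by RNAfold, 57.0 to 81.7% of the hairpin bases in the named bins were paired. Every 24-nt window was unique in the genome in 5 of the named bins, and 74 of 77 windows in that of *MIR166e*. In the adjoining bins, every window was unique at *MIR319a* and *MIR319b*, and 73 of 77 at *MIR159b*. This matters because, by the study's methods, uniquely mapped reads alone were counted.

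**Figure D1:**
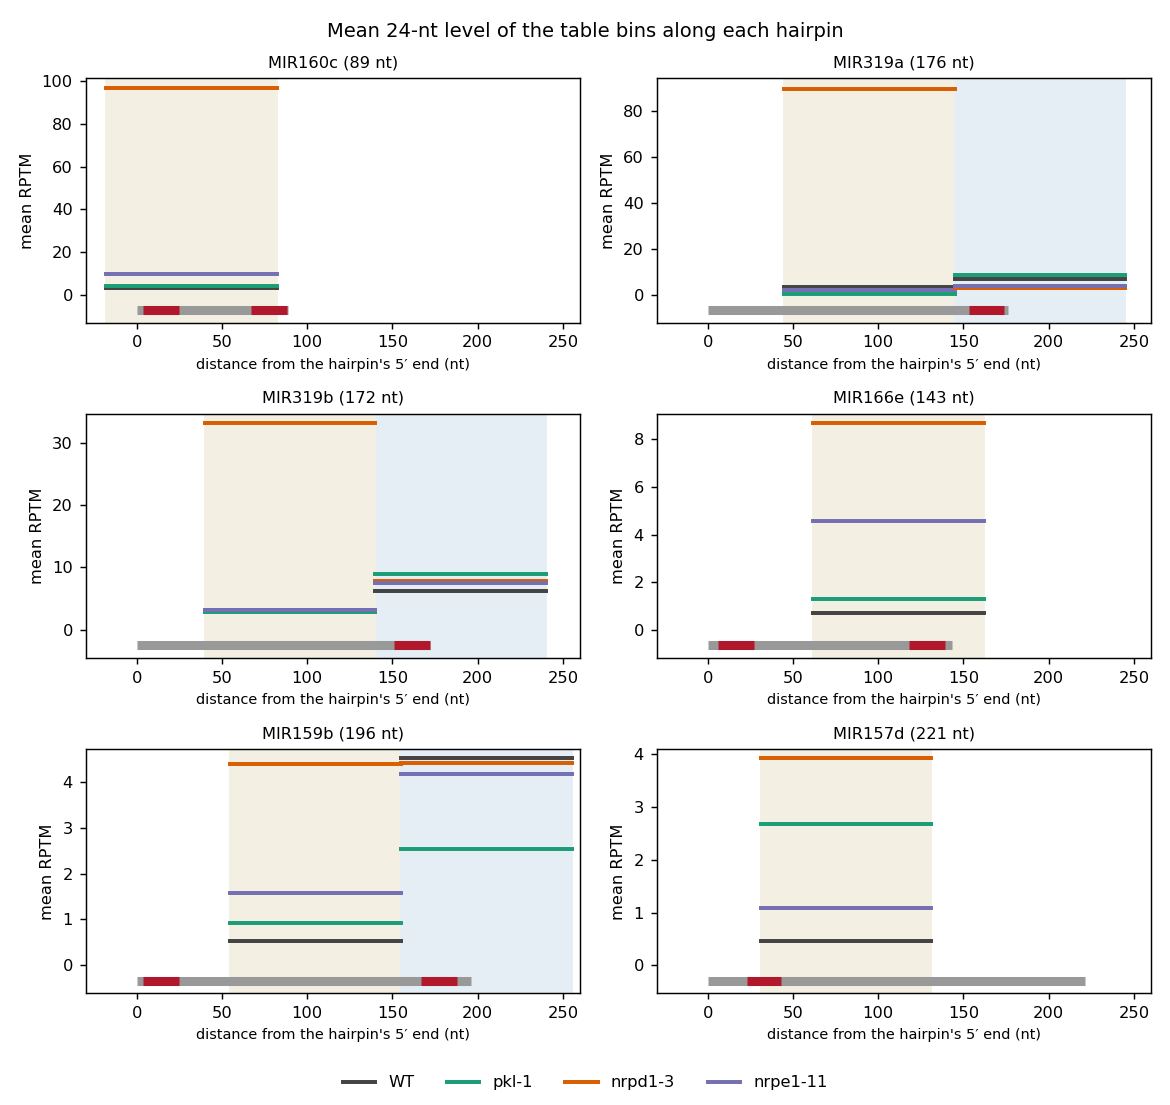
Mean 24-nt level in RPTM (vertical axis, linear, with its own range in each panel) of the table bins along the hairpin of each gene, against the distance in nt from its 5′ end. The grey bar is the hairpin with annotated mature miRNAs in red, the beige field the named bin and the blue field the adjoining bin, and coloured lines are means of 3 libraries for each genotype, with WT under *nrpe1* in the named bin of *MIR319b*. In *MIR319a* the *nrpd1* line stands at 89.9 RPTM over the inner hairpin and at 2.70 RPTM over the mature miRNA.

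The level of each gene is first described by genotype. Statements that libraries lay above or below others are descriptions, and the share of all bins with such a separation is not given. In the named bin of *MIR160c*, the 3 WT libraries had 3.23, 0, and 5.58 RPTM, and the *nrpd1* libraries 77.0, 131, and 82.2 RPTM. The *pkl* libraries had 3.97, 7.18, and 1.39 RPTM, and the *nrpe1* libraries 1.61, 8.18, and 19.6 RPTM. All 3 *nrpd1* libraries lay above the other 9, whereas WT, *pkl*, and *nrpe1* overlapped. The means ± SD (n = 3) in rising order were 2.94 ± 2.80 RPTM in WT, 4.18 ± 2.90 in *pkl*, 9.78 ± 9.08 in *nrpe1*, and 96.7 ± 29.7 in *nrpd1*. Over the 3 libraries, 203 reads in *nrpd1* stood against 8 in WT, a depth-corrected ratio of 32.7 (exact binomial 95% interval 16.3 to 76.8).

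The inner bin of *MIR319a* had 3.23, 1.27, and 5.58 RPTM in WT and 89.3, 98.1, and 82.2 RPTM in *nrpd1*. It had 0, 0, and 1.39 RPTM in *pkl* and 3.22, 3.27, and 0 RPTM in *nrpe1*. The *nrpd1* libraries were again above all others, and they were closer to each other here than at *MIR160c*. The means rose from 0.465 ± 0.805 in *pkl*, 2.16 ± 1.87 in *nrpe1*, and 3.36 ± 2.16 in WT, which overlap, to 89.9 ± 7.99 in *nrpd1* (SD, n = 3). The 192 reads in *nrpd1* against 9 in WT gave a ratio of 27.5 (14.2 to 61.0).

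The adjoining bin of *MIR319a*, which holds mature miR319a, did not share this difference. It had 6.46, 10.2, and 4.19 RPTM in WT and 3.35, 2.97, and 1.79 RPTM in *nrpd1*, so that all *nrpd1* libraries were below WT. The *pkl* libraries had 3.97, 11.5, and 9.76 RPTM and the *nrpe1* libraries 1.61, 6.54, and 3.01 RPTM, both overlapping WT. The 6 reads in *nrpd1* against 19 in WT gave a ratio of 0.407, with a counting interval that includes 1 (0.133 to 1.06). The log2 fold change of this adjoining bin in *nrpd1* was -1.06 ± 0.34 (SE), beside 4.51 ± 0.40 in the inner bin. Lower levels in *nrpd1* were usual, with 84.6% of all 56658 bins called lower. The inner bin was named for its higher level in *nrpd1*, so part of its contrast with the adjoining bin follows from the choice. The same limit holds at *MIR319b* and *MIR159b*. A 24-nt read that contains the whole of miR319a lies within the adjoining bin, and a read across the border counts in both bins. At most 6 of the 192 *nrpd1* reads in the inner bin can therefore reach into the bin of the mature miRNA. The table gives neither the strand of a read nor its place within a bin.

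*MIR319b*, the sister gene on chromosome 5, had the same arrangement at a lower level. Its inner bin had 1.61, 5.09, and 2.79 RPTM in WT and 15.6, 46.1, and 37.5 RPTM in *nrpd1*. It had 2.97, 1.44, and 4.18 RPTM in *pkl* and 3.22, 1.64, and 4.51 RPTM in *nrpe1*. *nrpd1* stood above the rest, at 33.1 ± 15.7 RPTM, and the means of WT (3.16 ± 1.77), *nrpe1* (3.12 ± 1.44), and *pkl* (2.86 ± 1.38) were within their spread of each other. The ratio of *nrpd1* to WT was 10.6 (5.09 to 25.6), from 66 against 8 reads.

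In the adjoining bin of *MIR319b*, with mature miR319b, WT had 5.65, 7.63, and 5.58 RPTM and *nrpd1* 12.3, 7.43, and 3.57 RPTM. The *pkl* libraries had 6.94, 8.61, and 11.2 RPTM and the *nrpe1* libraries 11.3, 6.54, and 4.51 RPTM. All 4 genotypes overlapped, with a log2 fold change of 0.15 ± 0.41 (SE) in *nrpd1* beside 2.99 ± 0.50 in the inner bin. The share of a gene's reads that fell in the inner bin was 32.1% in WT and 97.0% in *nrpd1* at *MIR319a*, and 32.0% in WT and 78.6% in *nrpd1* at *MIR319b*. The 2 hairpins were 74.7% identical over 182 aligned columns and shared 0 of their 24-nt windows, so a uniquely mapped read belongs to 1 of them.

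*MIR166e* had 0.807, 0, and 1.40 RPTM in WT and 6.70, 10.4, and 8.93 RPTM in *nrpd1*. It had 0.991, 2.87, and 0 RPTM in *pkl* and 1.61, 1.64, and 10.5 RPTM in *nrpe1*. All *nrpe1* libraries were above WT, although 7 of their 9 reads came from replicate 3, which lay within the range of *nrpd1*. The means were 0.734 ± 0.701 in WT, 1.29 ± 1.46 in *pkl*, 4.59 ± 5.14 in *nrpe1*, and 8.68 ± 1.87 in *nrpd1* (SD, n = 3), and neighbours in this order overlapped. With 18 reads in *nrpd1* against 2 in WT, the ratio of 11.6 had a wide interval (2.78 to 103.0).

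At *MIR159b* and *MIR157d* the difference rested on a handful of reads. The inner bin of *MIR159b* had 1.61, 0, and 0 RPTM in WT and 3.35, 4.46, and 5.36 RPTM in *nrpd1*, which is exactly 3 reads in each *nrpd1* library. It had 0, 0, and 2.79 RPTM in *pkl* and 1.61, 1.64, and 1.50 RPTM in *nrpe1*. The 9 reads in *nrpd1* against 2 in WT gave a ratio of 5.80 (1.20 to 55.1). The means were 0.538 ± 0.932 RPTM in WT, 0.930 ± 1.61 in *pkl*, 1.58 ± 0.0697 in *nrpe1*, and 4.39 ± 1.01 in *nrpd1* (SD, n = 3). WT, *pkl*, and *nrpe1* did not differ beyond their spread.

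The adjoining bin of *MIR159b*, with miR159b-3p, had 8.07, 1.27, and 4.19 RPTM in WT and 6.70, 2.97, and 3.57 RPTM in *nrpd1*. The *pkl* libraries had 1.98, 1.44, and 4.18 RPTM and the *nrpe1* libraries 1.61, 4.91, and 6.02 RPTM. All groups overlapped here, as in the adjoining bin of *MIR319b*, and the log2 fold change in *nrpd1* was 0.13 ± 0.55 (SE). *MIR157d* had 0, 0, and 1.40 RPTM in WT and 2.23, 5.95, and 3.57 RPTM in *nrpd1*. It had 0.991, 1.44, and 5.58 RPTM in *pkl* and 1.61, 1.64, and 0 RPTM in *nrpe1*. The *nrpd1* libraries were above WT and overlapped *pkl*, in which 4 of 6 reads came from replicate 3. The means were 0.465 ± 0.806 in WT, 1.08 ± 0.937 in *nrpe1*, 2.67 ± 2.53 in *pkl*, and 3.92 ± 1.88 in *nrpd1* (SD, n = 3), and neighbours in this order overlapped. The ratio of 10.3 from 8 *nrpd1* reads against 1 WT read had an interval from 1.38 to 457.3.

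**Figure D2:**
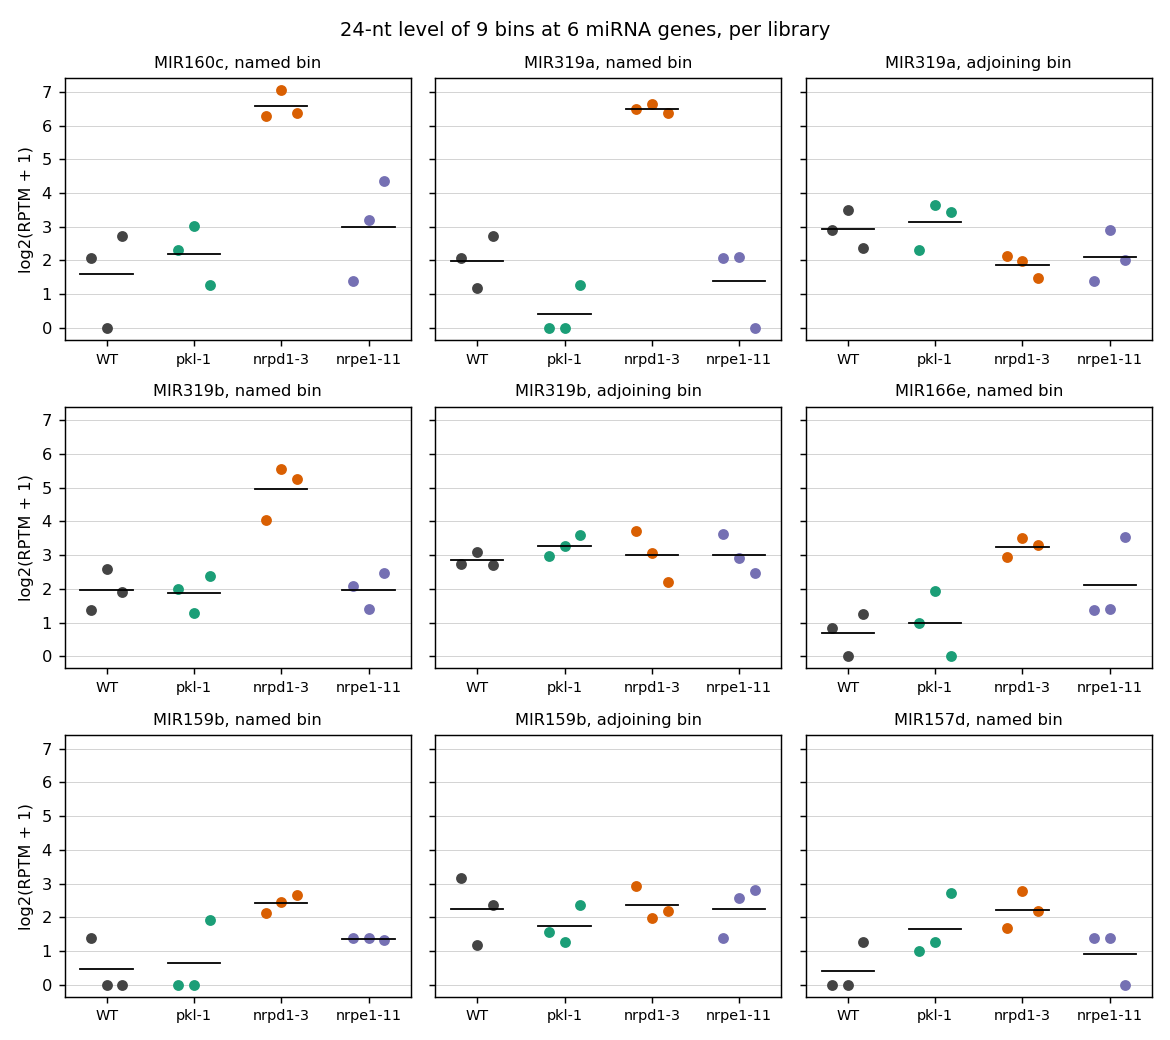
24-nt level on the log2(RPTM + 1) scale (vertical axis, shared by all panels) in each of the 12 libraries for the 6 named bins and the 3 adjoining bins, by genotype. Points are libraries in the order of replicates 1 to 3 and the lines are means of the plotted values. The *nrpd1* points lie above all WT points in the 6 named bins and below them in the adjoining bin of *MIR319a*. The named bins were chosen by this contrast, and 84.6% of all 56658 bins were called lower in *nrpd1*.

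Because the genes were chosen by this contrast, the differences between *nrpd1* and WT in the named bins are a description without a test. So are the differences between named and adjoining bins of the same gene. The log2 fold changes ± SE were 4.97 ± 0.72 for *MIR160c*, 4.51 ± 0.40 for *MIR319a*, 2.99 ± 0.50 for *MIR319b*, 2.55 ± 0.36 for *MIR166e*, 1.95 ± 0.42 for *MIR159b*, and 1.81 ± 0.45 for *MIR157d*. Across all bins the called changes in *nrpd1* went the other way, with 84.6% of 56658 bins lower and 0.141%, or 80 bins, higher than in WT at an adjusted p under 0.01 by limma. *MIR160c* and *MIR319a* had the 2 largest log2 fold changes of all analysed bins. Just outside the choice, *MIR168b* (1.77 ± 0.81) and *MIR399a* (1.73 ± 0.57) had log2 fold changes close to that of *MIR157d* with a wider error, and *MIR166a* was called higher at 0.93 ± 0.21 but is not among the 6. The nearest table rows outside 300 bp, 1600 to 30300 bp away on either side, had means of 2.01 to 215 RPTM in WT and 0 to 2.95 RPTM in *nrpd1*.

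All RPTM values share a denominator that contains the lost siRNAs. The mapped reads left when counted 24-nt reads are taken off made up 83.8 to 84.2% of WT reads and 93.7 to 93.9% of *nrpd1* reads, 1.12 times as much. Per reads left in this way, the log2 fold changes in *nrpd1* were 4.92 for *MIR160c*, 4.41 for *MIR319a*, 2.89 for *MIR319b*, 2.54 for *MIR166e*, 1.97 for *MIR159b*, and 1.83 for *MIR157d*. With equal 24-nt totals in all libraries, they were 2.62 to 6.10, and those of the adjoining bins were 0.040 for *MIR319a*, 1.35 for *MIR319b*, and 1.23 for *MIR159b*, instead of -1.06, 0.15, and 0.13. The lower level of the adjoining *MIR319a* bin in *nrpd1* was seen per mapped read and not per 24-nt read. The size of these fold changes depends on the pseudocount, most at low levels. With pseudocounts of 5 and 0.1 in place of 1, they were 0.77 and 4.10 for *MIR159b*, 0.70 and 3.92 for *MIR157d*, 1.25 and 4.07 for *MIR166e*, 2.14 and 3.35 for *MIR319b*, 3.71 and 6.25 for *MIR160c*, and 3.53 and 4.92 for *MIR319a*.

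The comparison of *pkl* with WT addresses whether the chromatin remodeler affects 24-nt reads at these genes. It uses the same 3 WT libraries whose low values entered the choice of the genes, as does the comparison of *nrpe1*. None of the 9 bins was called in *pkl* by limma, where 1.98% of all bins were called higher and 8.20% lower, and edgeR also called 0. DESeq2 called 0 as well but gave no adjusted p for 7 of the 9 bins. By limma, 1 bin had an unadjusted p under 0.05, and by edgeR and DESeq2 0. It was the inner bin of *MIR319a*, with 1 read in *pkl* against 9 in WT and a log2 fold change of -1.57 ± 0.77 (SE, limma adjusted p = 0.165). Its ratio of 0.126 has a counting interval of 0.00287 to 0.907. *MIR157d* had 6 reads against 1 and a log2 fold change of 1.24 ± 0.81 (adjusted p = 0.312), and *MIR160c* had 10 against 8 and 0.60 ± 0.72 (adjusted p = 0.615). The inner bin of *MIR319b* had 7 reads in *pkl* and 8 in WT, with a ratio of 0.990 (0.306 to 3.12). At *MIR166e* and the inner bin of *MIR159b*, 3 and 2 *pkl* reads stood against 2 and 2 in WT, too few for a fold. The adjoining bins had adjusted p of 0.837, 0.610, and 0.651 for *MIR319a*, *MIR319b*, and *MIR159b*.

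In *nrpe1*, where Pol V is affected, none of the 9 bins was called either, against 1.02% of all bins higher and 29.4% lower, and none had an unadjusted p under 0.05 by limma. edgeR and DESeq2 called 0 of the 9 bins, but edgeR gave an unadjusted p of 0.0063 for *MIR160c* (adjusted p = 0.0173) and 0.025 for *MIR166e* (adjusted p = 0.0591), and DESeq2 0.048 for *MIR160c* (adjusted p = 0.130). *MIR166e* had a log2 fold change of 1.40 ± 0.67 (SE, limma adjusted p = 0.140), which was 0.69 ± 0.55 without *nrpe1* replicate 3 (adjusted p = 0.391). *MIR160c* had 19 reads against 8 and a log2 fold change of 1.38 ± 0.92 (adjusted p = 0.287), with 13 of the 19 reads in replicate 3, and 0.69 ± 0.94 without it (adjusted p = 0.622). The same library held 564 RPTM in the other listed conserved bins described next, the highest of the *nrpe1* libraries, and its part in these values was not tested. The inner bin of *MIR319b* had a log2 fold change of 0.0077 ± 0.50 (adjusted p = 0.993), and its ratio of 1.08 had an interval from 0.310 to 3.56. The inner bin of *MIR319a* had 4 reads against 9, a log2 fold change of -0.60 ± 0.69 (adjusted p = 0.547). At the inner bin of *MIR159b* and at *MIR157d*, 3 against 2 and 2 against 1 reads gave no fold. Without WT replicate 1, the *MIR159b* bin was called at an adjusted p of 0.00435, with 1 read in each *nrpe1* library and none in the 2 remaining WT libraries.

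**Figure D3:**
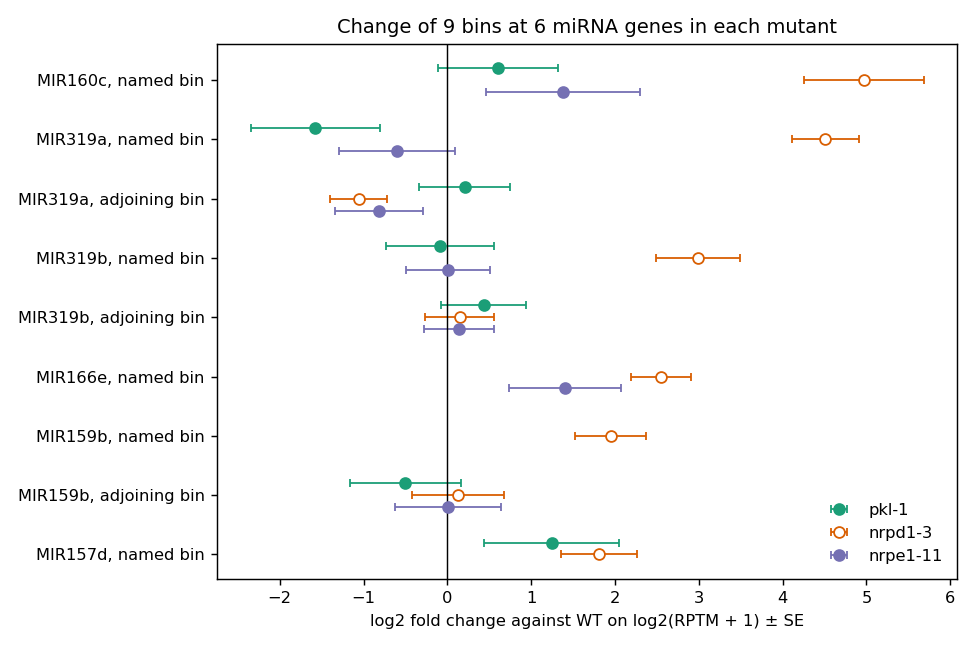
Log2 fold change against WT ± SE (horizontal axis, on log2(RPTM + 1)) of the 9 bins in *pkl*, *nrpd1*, and *nrpe1*, from fits with 3 mutant and 3 WT libraries. Filled points are the tested contrasts and open points the *nrpd1* contrast, by which the genes were chosen, and bins with at most 3 reads in both groups have no point. The open points of the named bins lie between 1.81 and 4.97, and no filled point was called.

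Bins at other conserved miRNA genes are given for comparison. Of 94 annotated genes in 26 conserved families, 33 overlapped an analysed bin, 43 bins in all, and 37 of these bins were not named. The 37 include the 3 adjoining bins of the 6 genes and are what the choice of higher bins in *nrpd1* left over, so nothing is read from how many of them were called higher in that mutant. In *nrpd1*, 1 of the 37 was called higher and 0 lower, beside 0.141% and 84.6% of all bins. An unadjusted p under 0.05 was reached by 14 of the 37, 13 of them with the higher level in *nrpd1*, and by 49760 of all 56658 bins. The median log2 fold change of the 37 bins was 0.64, with 31 above 0, where the median of all 56658 bins was -2.95. A bin passes the filter of 5 RPTM through any library. That of *MIR166f* passed through *nrpd1* alone (6.70 and 7.43 RPTM, at most 2.79 in WT), whereas the adjoining bin of *MIR319a* passed without *nrpd1*. Part of the fold changes above 0 can therefore follow from the filter. The 190 bins at miRNA genes of other families had 12 bins higher and 106 lower, with a median of -2.31. In all, 19 of the 80 bins called higher in *nrpd1*, or 23.8%, lay in annotated miRNA genes, which hold 0.411% of analysed bins, and the 6 named bins are among these 19.

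*MIR166a*, from the same family as *MIR166e*, was the 1 called bin, at chr2:19176201-19176300. It had 42.0, 58.5, and 46.1 RPTM in WT and 83.7, 104, and 92.9 RPTM in *nrpd1* (log2 fold change 0.93 ± 0.21, limma adjusted p = 0.00535), and the call was lost without WT replicate 3, with a pseudocount of 0.1, per mapped reads left without 24-nt reads, and with DESeq2. Its neighbouring bin had 7.49 ± 0.967 RPTM in WT and 10.3 ± 1.19 in *nrpd1* (adjusted p = 0.0784). *MIR157c*, of the *MIR157d* family, had 8.98 ± 4.15 RPTM in WT and 27.8 ± 10.4 in *nrpd1* (adjusted p = 0.0155). *MIR159c* had 42.0 ± 7.41 and 65.7 ± 6.55 RPTM (adjusted p = 0.0271), *MIR166f* 2.16 ± 0.792 and 5.31 ± 3.07 (adjusted p = 0.126), and *MIR166b* 8.36 ± 4.92 and 11.6 ± 7.40 (adjusted p = 0.488). None of these 4 passed the threshold, and the values are means ± SD of 3 libraries.

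Outside the families of the 6, the highest WT means were those of *MIR165a*, *MIR408*, and *MIR403*. *MIR165a*, whose miRNA differs little from miR166, had 35.4 ± 10.6 RPTM in WT and 64.9 ± 3.12 in *nrpd1* (adjusted p = 0.0133). *MIR408*, which targets genes of copper proteins, had 30.5 ± 14.9 and 24.4 ± 9.85 RPTM (adjusted p = 0.541), and *MIR403*, which targets *AGO2*, 28.9 ± 8.07 and 50.9 ± 12.5 RPTM (adjusted p = 0.0406). In *nrpd1* the highest means besides *MIR165a* and *MIR403* included *MIR162b*, whose miRNA targets *DCL1*, with 12.3 ± 6.25 RPTM in WT and 33.5 ± 11.6 in *nrpd1* (adjusted p = 0.0153). In *nrpd1* the means of *MIR160c* (96.7 RPTM) and *MIR319a* (89.9 RPTM) were close to the 93.6 ± 10.2 RPTM of *MIR166a*, whose mean in WT was 48.8 ± 8.62 RPTM.

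In the other mutants the 37 bins gave no call by limma. Their median log2 fold change was -0.22 in *pkl*, beside -0.31 over all bins, and 0.14 in *nrpe1*, beside -0.68. Unadjusted p was under 0.05 for 2 bins in *pkl*, beside 17070 of all 56658, and for 4 in *nrpe1*, beside 26569. The median in *pkl* was 0.0078 without *pkl* replicate 1, where 1 bin was called higher, as was 1 with equal 24-nt totals, and that in *nrpe1* was -0.058 without *nrpe1* replicate 3 and 0.67 with equal 24-nt totals. edgeR called 0 of them in both mutants, and DESeq2 called 1 higher in *pkl* and 0 in *nrpe1*. The 37 bins together held 409 ± 87.6 RPTM in *pkl*, 423 ± 61.2 in WT, 467 ± 95.2 in *nrpe1*, and 699.9 ± 77.6 in *nrpd1* (SD, n = 3).

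**Figure D4:**
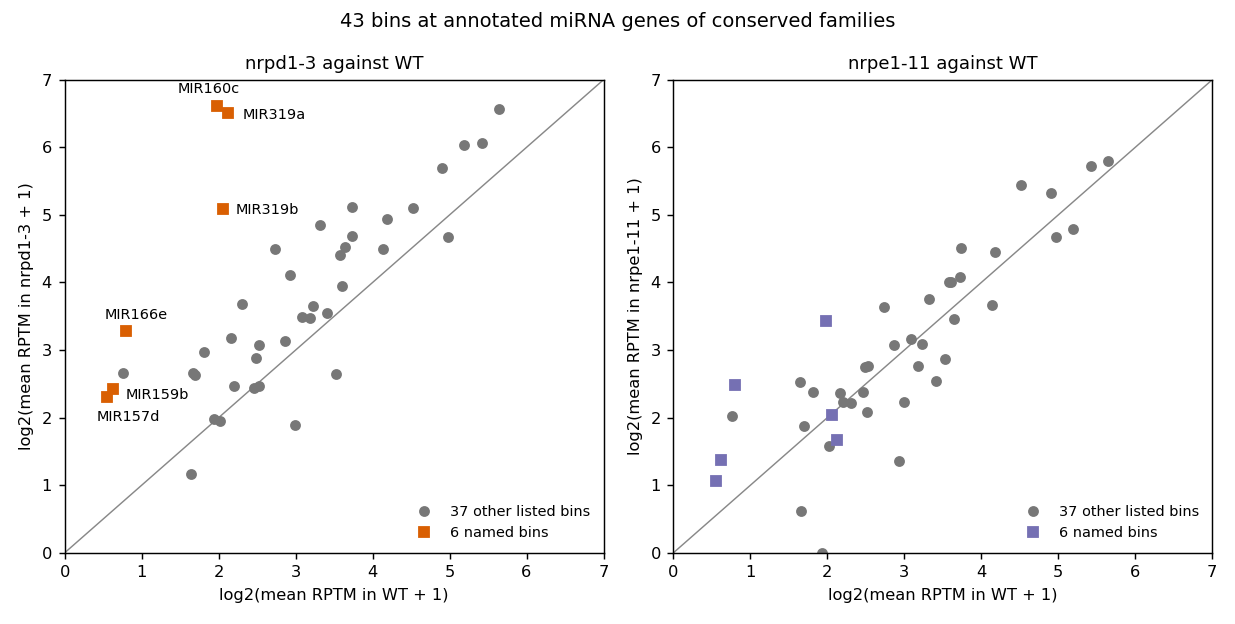
Mean level in *nrpd1* (left) and *nrpe1* (right) against the mean in WT, both as log2(mean RPTM + 1), for the 43 analysed bins at conserved miRNA genes. Squares are the 6 named bins, chosen by the *nrpd1* contrast, circles the 37 others, and the line marks equal levels. In *nrpd1* most circles lie slightly above the line, with a median log2 fold change of 0.64, and the squares of *MIR160c* and *MIR319a* reach the height of the most abundant bin.

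The profile over the 12 libraries was compared between each named bin and bins in other annotated miRNA genes by Pearson's r of log2(RPTM + 1). These values are descriptions over libraries that share depth and genotype. The 12 libraries include those of *nrpd1*, by which the named bins were chosen, so a high r partly restates that choice. *MIR160c* and *MIR166e* were most like each other (r = 0.92). Both *MIR319a* (r = 0.93) and *MIR319b* (r = 0.90) were most like a bin of *MIR837*, with 20.8 RPTM in WT and 53.8 in *nrpd1*. *MIR159b* was most like *MIR162b* (r = 0.85), and *MIR157d*, with the least likeness, a bin of *MIR841a* (r = 0.74), which had 26.3 RPTM in WT, 78.2 in *pkl*, and 70.0 in *nrpd1*. The hairpins of the 6 genes were 89 to 221 nt long, with a median of 174 nt, against 104 to 225 nt and a median of 123 nt in the 27 other listed genes with an analysed bin. Their predicted folding energies per 100 nt, -57.6 to -33.6 kcal/mol, overlapped those of the others, -50.6 to -27.9 kcal/mol, with medians of -42.8 and -41.2 kcal/mol.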

How the data were processed

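Small RNA libraries of 12 seedling samples were analysed, 3 for each genotype. The authors purified RNA of 18 to 30 nt, cut off adapters and bases of quality below 30, left out structural RNAs, mapped the other reads to TAIR10, and counted uniquely mapped 24-nt reads in 100-bp bins. The submitters' processing notes name CASAVA 1.8, Trim Galore 0.4.0, BWA 0.7.15, bedtools, and edgeR. The deposited signal is in RPTM, normalized by the authors to all mapped reads, and a read that spans the border of 2 bins is in the value of each. All values were whole multiples of 1 read (tolerance 0.001 reads), from which reads and library totals were recovered.

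Bins above 5 RPTM in at least 1 library were fitted for each mutant against WT by limma 3.58.1 (lmFit and eBayes with a trend, R 4.3.3) on log2(RPTM + 1), two-sided, with Benjamini-Hochberg adjustment over 56658 bins and calls at an adjusted p under 0.01. This replaces the study's edgeR test because the values are normalized. Alternatives were pseudocounts of 0.1 and 5, other filters, other scalings, a joint fit, a replicate block, an adjusted p of 0.05, edgeR 4.0.16 and DESeq2 1.42.0 on recovered reads, and leaving out each library. The fits were also tested on simulated data, whose outcome is not given here. Ratios of reads have exact conditional binomial 95% intervals and none is given where both groups have at most 3 reads over their libraries.

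The members and lists were chosen with earlier results of these data known. Named besides the 6 genes are listed conserved genes of their families, those with the 3 highest WT and the 3 highest *nrpd1* means outside these families, and the bin of another miRNA gene with the highest Pearson's r. The list holds 26 families taken as conserved among flowering plants. Annotation and sequences are from RefSeq TAIR10.1, whose nuclear chromosomes end beyond the last bin of the table, and folds from RNAfold 2.7.2. Bins outside the table were not used here.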

Additional observations from a re-analysis of the deposited data

How the results depend on the processing

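Depth limits these comparisons. WT libraries hold 0 to 4 reads in each named bin, 3 reads are worth up to 5.36 RPTM, and the named bins of *MIR166e*, *MIR159b*, and *MIR157d* have at most 7 reads in any library. The 6 named bins were chosen by the *nrpd1* contrast, so their calls in it are a description without a test. With a pseudocount of 5 or per reads left without 24-nt reads, 5 were called. There were 4 with edgeR or without any 1 library, 3 with DESeq2, and 2 with a pseudocount of 0.1. Other settings that fitted all 6 called all 6. A filter at 10 RPTM removed *MIR159b* and *MIR157d*. In *pkl* and *nrpe1*, no alternative called a bin of the 6 genes except that of *MIR159b* named in the text.

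Over all bins, 47998 were called in *nrpd1*, 17229 in *nrpe1*, and 5769 in *pkl*. The *pkl* count was 2157 with a pseudocount of 0.1, 9995 at an adjusted p of 0.05, and 2638 to 6135 without 1 library, with 2766, 2753, and 2638 without WT replicates 1, 2, and 3. The *nrpe1* count was 10239 with a pseudocount of 0.1 and 10640 to 16134 without 1 library, with 11332, 10640, and 10844 without WT replicates 1, 2, and 3. Of the 37 other conserved bins, 1 was called higher in *nrpd1*, and 0 with a pseudocount of 0.1, DESeq2, or per reads left without 24-nt reads, 3 in the joint fit, 4 with a pseudocount of 5, 6 with edgeR, 12 (and 1 lower) at an adjusted p of 0.05, 19 with equal 24-nt totals, and 0 to 3 without 1 library. Over all bins, the main fit called 80 higher in *nrpd1*. There were 1346 with equal 24-nt totals, 310 at an adjusted p of 0.05, and 72 in the joint fit. In *nrpe1*, 1 of the 37 bins was called lower with a pseudocount of 0.1, in the joint fit, and without WT replicate 3, 1 higher with equal totals, and 1 higher and 2 lower at an adjusted p of 0.05. These alternatives for the 37 bins were added after the data had been seen. Equal 24-nt totals moved the median log2 fold change of all bins from -2.95 to -2.50 in *nrpd1*, from -0.68 to -0.12 in *nrpe1*, and from -0.31 to -0.08 in *pkl*, with 2232 bins higher and 4394 lower in *pkl* (1124 and 4645 per mapped read) and 2399 and 12702 in *nrpe1* (577 and 16652). The median of the 37 bins in *nrpd1* was 0.49 per reads left without 24-nt reads and 1.90 with equal totals. DESeq2 called 1827 bins higher and 2930 lower in *pkl*. The causes of these shifts were not tested.

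Some small uncalled differences changed sign. For the inner bin of *MIR319b*, the log2 fold change in *pkl* was 0.098 with equal totals and 0.27 with DESeq2, and that in *nrpe1* -0.00091 with a pseudocount of 5 and -0.071 per reads left. For the adjoining bin of *MIR159b* in *nrpe1*, it was -0.021 with a pseudocount of 5, -0.073 per reads left, and -0.24 with edgeR. Without 1 library, the log2 fold change in *pkl* was -0.20 to 1.16 for *MIR160c*, -0.063 to 0.62 for the adjoining bin of *MIR319a*, and -0.38 to 0.23 for the inner bin of *MIR319b*. In *nrpe1* it was -1.01 to 0.092 for the inner bin of *MIR319a*, -0.17 to 0.41 and -0.28 to 0.32 for the adjoining and inner bins of *MIR319b*, and -0.53 to 0.47 for the adjoining bin of *MIR159b*.

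With a replicate block, 48344 bins were called in *nrpd1*, 17410 in *nrpe1*, and 7802 in *pkl*, and no bin of the 6 genes changed its call. Deviations of WT and mutant libraries with the same number correlated at 0.040 to 0.17 for *pkl*, -0.0027 to 0.042 for *nrpd1*, and -0.0087 to 0.059 for *nrpe1*, so the numbers were not taken as pairs. All 3 *pkl* libraries correlated best with the WT library of their own number, as did 1 of 3 in *nrpd1* and in *nrpe1*.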
